A study of Homo sapiens with 12 samples.

Results

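Ribosome production was followed in K562 cells, a line derived from a chronic myeloid leukaemia, through 58 genes that encode its machinery. The genes comprise 5 subunits of RNA polymerase I (Pol I), 6 Pol I initiation factors, 4 proteins of box C/D and 4 of box H/ACA small nucleolar ribonucleoproteins (snoRNPs), 3 nucleolar chaperones or scaffolds, 18 factors of the small subunit processome and 40S maturation, and 18 factors of 60S assembly. A list of 59 gene symbols set the members. Each symbol was looked up among the gene names of the 38272 loci of the deposited table, and where several loci carried it, the locus with the highest mean level over the 12 libraries was taken. BRIX1 was the 1 listed symbol without a match by this rule and is not analysed here. All 58 matched genes passed the expression filter and were tested.

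Pol I transcribes the ribosomal RNA (rRNA) genes in the nucleolus from promoters that bind the upstream binding factor UBTF and the selectivity factor SL1, and RRN3 joins the polymerase to them. The precursor rRNA is modified by box C/D snoRNPs, which methylate riboses, and by box H/ACA snoRNPs, which form pseudouridine. It is then cleaved and folded in the small subunit processome and in the particles that become the 40S and 60S subunits. These genes are broadly expressed, rise with cell growth, and include many known targets of the transcription factor MYC.

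The 12 libraries form 4 groups with 3 labelled biological replicates each. Every group was transfected with a pair of oligonucleotides, an siRNA and a GapmeR, which is an antisense oligonucleotide that recruits RNase H to its target. Control cells received the non-targeting pair (SiCt and GapCt). SG cells received the pair Si623 and Gap01 against a long non-coding RNA. TNF cells had the non-targeting pair followed by tumour necrosis factor at 20 ng/mL for 6 hours, and TNFSG cells had the targeting pair followed by that cytokine treatment. All libraries come from 1 cell line, no untransfected group was analysed, and in SG the effects of siRNA and GapmeR cannot be told apart. No locus was matched by name to the targeted RNA, so its level was not used here as a check of the SG label.

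Levels are FPKM, fragment counts divided by transcript length and by the total of mapped fragments, and are given below for replicates 1, 2 and 3 in that order. Relative depth, recovered from the steps of low values, lay between 0.863 and 1.32 times a common scale, and total read numbers are unknown. Of 16 erythroid markers of K562, 14 were in the file, all of them averaged at least 1 FPKM, and their summed level lay between 3712 and 9091 FPKM per library. HBG2 and HBE1 had the same mean in every group, with 2183 FPKM over the 12 libraries. The sum counts this level for each of the names, so it is too high if they share a locus. Summed levels were 16.03 to 50.3 FPKM for lymphoid, 54.3 to 74.4 FPKM for epithelial, 15.9 to 57.2 FPKM for endothelial and 10.0 to 45.3 FPKM for monocyte markers. Fibroblast markers summed to 21.4 to 1178 FPKM, the top value belonging to a TNF library, and ranged from 23.9 to 56.3 FPKM in control, from 55.1 to 1178 FPKM in TNF, from 21.4 to 45.3 FPKM in SG and from 65.2 to 444 FPKM in TNFSG. The last 2 ranges do not overlap, while those of control and TNF do. Of the fibroblast markers, COL1A2 averaged 1.13 FPKM in control, 409 FPKM in TNF, 4.43 FPKM in SG and 138 FPKM in TNFSG. In the same order of groups, COL1A1 averaged 3.37, 4.04, 1.9 and 4.33 FPKM, and DCN 30.6, 51.1, 27.3 and 58.2 FPKM. The part of these markers in the results below was not tested.

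A library effect ran across the members and touches every count below. Replicate 1 was the lowest of its group for 47 of 58 members in control, 47 in TNF and 44 in TNFSG, against 28 in SG. On the log2(FPKM + 1) scale, the median deviation of the members from their own mean over all libraries was -0.28 in TNF replicate 1 and -0.0011 and -0.039 in TNF replicates 2 and 3. In control the corresponding values were 0.037, 0.25 and 0.22, in SG 0.080, 0.11 and 0.12, and in TNFSG -0.21, -0.048 and -0.10. The part of this library difference in the results was not tested, and the calls of the TNF comparisons and of a wider assembly list are also given without replicate 1 of every group. Such fits, and those of the compared groups alone, hold fewer libraries and have less power. A call lost in them can therefore not be assigned to the libraries left out.

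**Figure D1:**
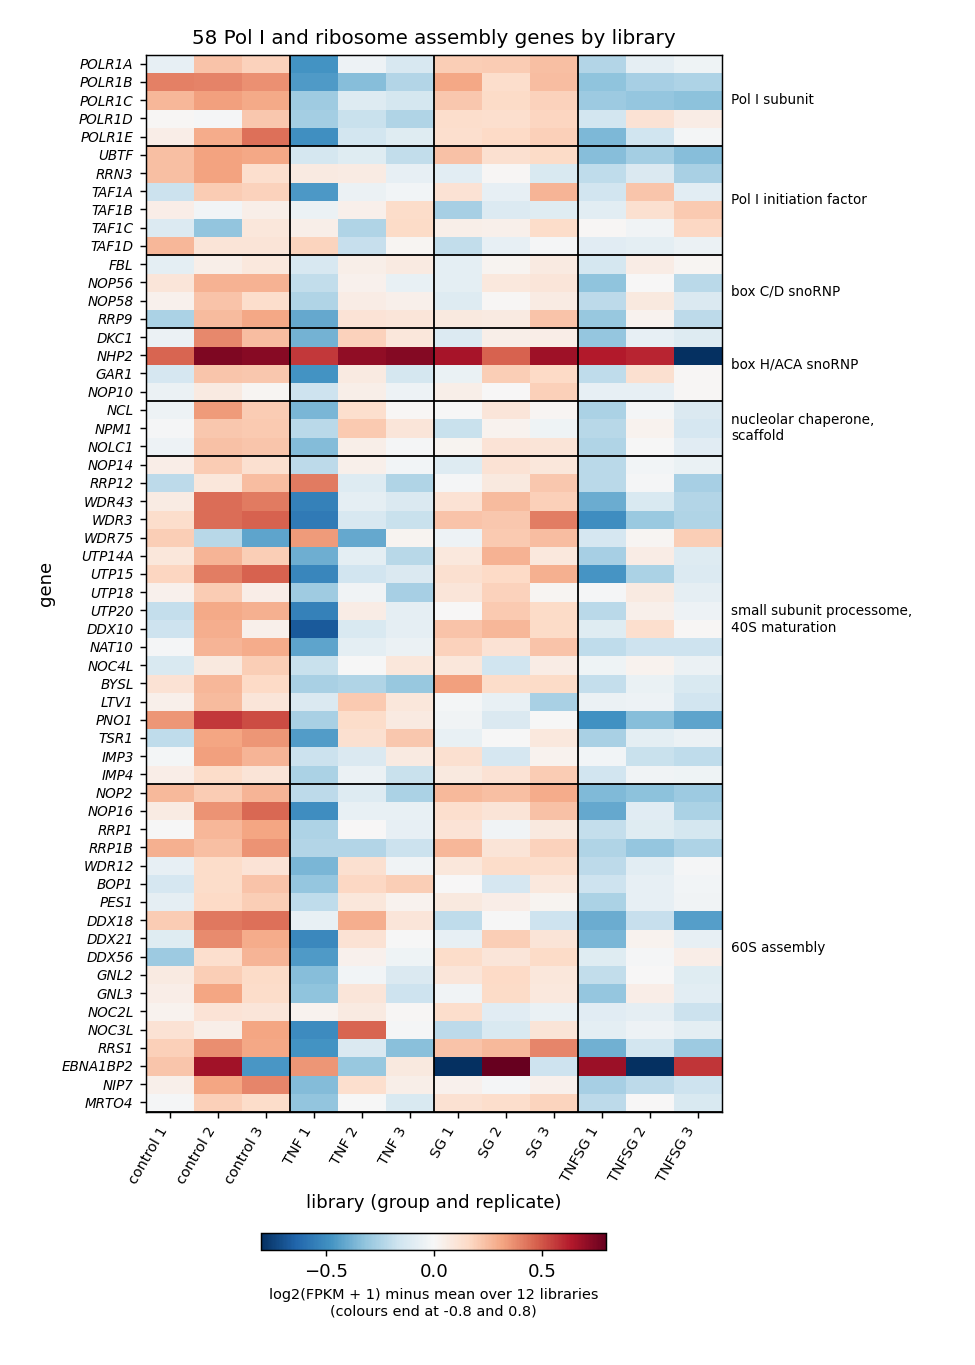
Each row is 1 of the 58 genes, grouped by role, and each column 1 of the 12 libraries, ordered by group and replicate. Colour gives log2(FPKM + 1) minus the mean of the gene over the 12 libraries, red above and blue below. Control and SG columns are mostly red and TNFSG columns mostly blue. TNF replicate 1 is the bluest of its group, with 50 of 58 members below their mean, against 29 in replicate 2 and 36 in replicate 3. The dark cell of NHP2 is the library where it was listed at 0.

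Promoter sequence is shown for the members that fell after TNF and had a match in the windows searched, so that the start regions can be read beside the values. RefSeq windows on GRCh38.p14, each running from 250 bases before to 50 bases after an annotated start, existed for 50 of the 58 members. Searched on both strands were CACGTG, a core bound by MYC with MAX and by related factors, CCGGAAG, a core bound by ETS family factors, and the NF-kB consensus, bound by the factors that TNF activates. CACGTG reads the same on both strands and was counted once. Capitals mark the matches, the lower case letters are the surrounding bases, and every stretch is printed 5′ to 3′ on the strand of the gene.
POLR1B, chr2:112541870-112541956, plus strand: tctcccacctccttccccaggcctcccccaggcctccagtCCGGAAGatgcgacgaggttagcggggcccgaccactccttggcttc
POLR1B, chr2:112542383-112542469, plus strand: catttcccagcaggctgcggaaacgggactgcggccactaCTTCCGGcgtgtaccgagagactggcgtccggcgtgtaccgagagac
BYSL, chr6:41921487-41921548, plus strand: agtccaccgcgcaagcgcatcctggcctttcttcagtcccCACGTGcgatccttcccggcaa
POLR1C, chr6:43516839-43517011, plus strand: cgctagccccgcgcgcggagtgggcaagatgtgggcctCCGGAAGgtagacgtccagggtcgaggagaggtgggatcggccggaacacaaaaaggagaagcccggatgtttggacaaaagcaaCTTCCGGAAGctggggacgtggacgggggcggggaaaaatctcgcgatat
NOP2, chr12:6568242-6568296, minus strand: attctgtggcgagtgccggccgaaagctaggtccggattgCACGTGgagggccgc
POLR1B had 2 windows, with CCGGAAG at -126 on the plus strand in the first and at -42 on the opposite strand in the other. POLR1C held CCGGAAG at -212, at -127 on the opposite strand and at -124, and the latter 2 matches overlap to form the longer run of capitals. CACGTG lay at 29 in BYSL and at 36 in NOP2, both counted downstream from the start. Neither of the windows of UBTF held CACGTG or CCGGAAG. RRP1B and RRS1 had no window and were not searched.

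CACGTG was found in 37.7% of the 61 member windows, in 7.3% of all 35116 windows and in 10.1% of the 9393 windows of genes averaging at least 10 FPKM. It was in 23.2% of the windows of other ribosome assembly genes and in 5.1% of those of ribosomal protein genes. For CCGGAAG the shares were 41.0% of member windows, 10.3% of all windows, 18.8% at 10 FPKM or more, 37.5% for other assembly genes and 33.3% for ribosomal protein genes. The NF-kB consensus was in 9.8% of member windows and in 9.1% of all windows. The changes after TNF are given by motif as a description, with no test. The median log2 difference of TNF against control was -0.29 for the 22 members with CACGTG and -0.24 for the 28 without, -0.19 for the 22 with CCGGAAG and -0.30 for the 28 without, and -0.15 for the 6 with the NF-kB consensus and -0.27 for the 44 without.

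In cells with the non-targeting oligonucleotides, TNF lowered 7 of the 58 genes and raised none (limma, Benjamini-Hochberg adjusted p under 0.05 over 32866 loci). The 7 were the Pol I subunits POLR1B and POLR1C, the initiation factor UBTF, the 40S factor BYSL and the 60S factors NOP2, RRP1B and RRS1. The symbols BYSL, POLR1B and UBTF each had another locus, averaging 8.53, 2.35 and 1.66 FPKM, that the rule set aside. The 7 lowered genes make up 12.1% of the members, against 0.277% of all loci and 0.682% of the 9824 loci averaging at least 10 FPKM that were lower by the same rule. At an unadjusted p under 0.05, 27 members were lower and 0 higher, where 3675 of 32866 loci were at that level in either direction. Of the 58 members 54 had a negative log2 difference, with a median of -0.26, where the median was -0.021 over all loci and -0.033 over loci at 10 FPKM or more. In 22 members (37.9%) every TNF replicate lay below every control replicate, as in 12.1% of loci at 10 FPKM or more. Without replicate 1 of every group 3 members fell, namely POLR1B, POLR1C and WDR43. With only the control and TNF libraries in the fit none did (adjusted p from 0.0502 for POLR1B to 0.183 for RRS1).

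In cells with the targeting oligonucleotides, TNFSG against SG gave 6 lower members and no higher one by the same test. These were the 7 genes above without BYSL, 10.3% of the members, where 0.277% of all loci and 0.651% of loci at 10 FPKM or more were lower. At an unadjusted p under 0.05, 19 members were lower and 1, TAF1B, higher, where 3743 of 32866 loci were at that level in either direction. The log2 difference was negative in 54 of 58, with a median of -0.20 against -0.028 over all loci. Every TNFSG replicate lay below every SG replicate in 30 members (51.7%), as in 14.9% of loci at 10 FPKM or more. This comparison shares no library with TNF against control, but both tests come from 1 fit over the 12 libraries and use the same estimate of spread for each gene, so which genes passed is not independent between them. Without replicate 1 of every group POLR1C alone fell, and with only the SG and TNFSG libraries in the fit 3 members did. In bulk RNA, fewer cells expressing a gene and less RNA per cell cannot be told apart.

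**Figure D2:**
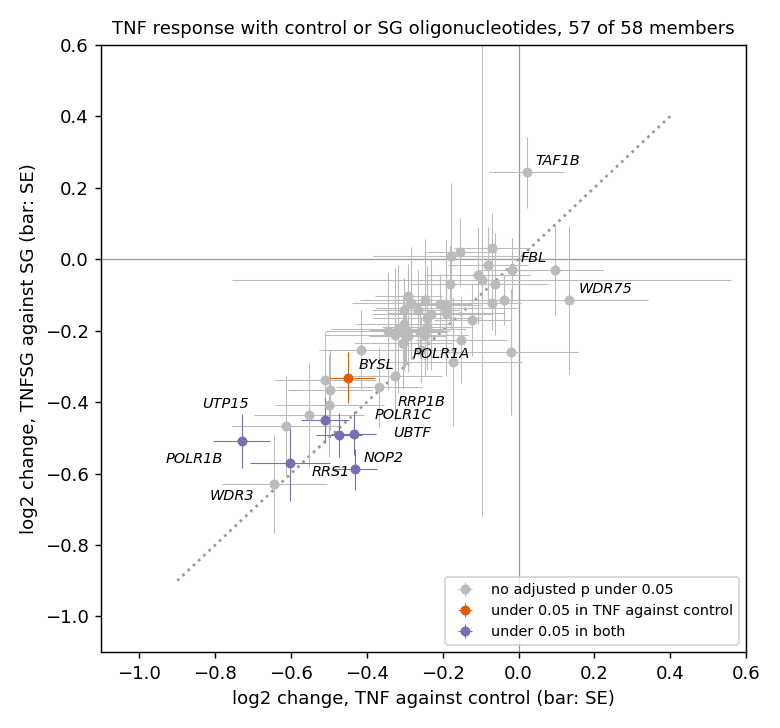
Each point is a gene, with its log2 change in TNF against control on the horizontal axis and in TNFSG against SG on the vertical axis, bars showing standard errors. Colours mark an adjusted p under 0.05 in both comparisons (6 genes) or in the first (BYSL), and the dotted line is equal change. NHP2, listed at 0 in 1 TNFSG library, is left out. Most points lie where both differences are negative, at the lower left.

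All 5 Pol I subunits had negative differences in both comparisons, with medians of -0.47 and -0.34, and 2 of 5 fell in each. POLR1B, the second largest subunit and part of the catalytic core, was at 23.9, 23.7 and 23.2 FPKM in control and at 12.7, 13.8 and 14.99 FPKM in TNF. It was at 22.3, 19.7 and 21.3 FPKM in SG and at 14.1, 14.7 and 14.9 FPKM in TNFSG. All 6 libraries without TNF were above all 6 with it. The mean of POLR1B fell by 41.3% in TNF (log2 change -0.73 ± 0.076 SE, limma adjusted p = 0.00103) and by 31.2% in TNFSG against SG (-0.51 ± 0.076, adjusted p = 0.00857). The gene lies at chr2:112541915-112577150 on the plus strand (GENCODE 29, GRCh38).

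POLR1C, a subunit shared with RNA polymerase III, was at 38.7, 40.3 and 39.7 FPKM in control, 26.1, 29.7 and 28.9 FPKM in TNF, 37.3, 35.6 and 36.5 FPKM in SG and 26.0, 25.6 and 25.3 FPKM in TNFSG. The TNF-treated libraries again lay wholly below the untreated ones. The log2 change was -0.47 ± 0.061 in TNF against control (limma adjusted p = 0.00372) and -0.49 ± 0.061 in TNFSG against SG (adjusted p = 0.00283). POLR1C lies at chr6:43509702-43562419 on the plus strand, and 4 genes on the opposite strand share 2.3% to 7.1% of its exon bases each. Whether counting used strand is not given in the sources used here, so their reads cannot be told apart. The largest subunit POLR1A, the partner of POLR1B in the catalytic core, was at 15.6, 19.4 and 18.8 FPKM in control and 11.5, 15.97 and 14.98 FPKM in TNF. Its groups overlapped, and its log2 difference of -0.33 ± 0.12 did not pass (adjusted p = 0.342). POLR1D, also shared with RNA polymerase III, had -0.30 ± 0.085 (adjusted p = 0.164), and POLR1E, a Pol I specific subunit, -0.51 ± 0.13 (adjusted p = 0.132).

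Among the initiation factors UBTF fell, and the others ranged to either side of no difference. UBTF, the architectural factor of rRNA gene promoters, was at 31.1, 33.0 and 32.6 FPKM in control and at 23.6, 24.4 and 22.7 FPKM in TNF. In SG it was at 30.9, 28.7 and 29.2 FPKM and in TNFSG at 20.4, 21.5 and 20.5 FPKM, so that TNFSG held its lowest values. The log2 change was -0.43 ± 0.060 in TNF against control (limma adjusted p = 0.0055) and -0.49 ± 0.060 in TNFSG against SG (adjusted p = 0.00271). UBTF lies at chr17:44205033-44221626 on the minus strand, and an antisense gene shares 3.1% of its exon bases.

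RRN3, which links Pol I to SL1, was at 12.9, 13.8 and 11.9 FPKM in control, 11.4, 11.3 and 10.3 FPKM in TNF, 10.1, 10.9 and 9.83 FPKM in SG and 9.27, 9.90 and 8.86 FPKM in TNFSG. Control was its highest group and did not overlap with any other. Its log2 difference was -0.21 ± 0.085 in TNF against control (adjusted p = 0.396) and -0.13 ± 0.085 in TNFSG against SG (adjusted p = 0.664). The SL1 subunits TAF1A, TAF1B, TAF1C and TAF1D had log2 differences of -0.25, 0.021, 0.096 and -0.15 in TNF against control, none past the threshold. TAF1B was at 8.73, 9.82 and 9.89 FPKM in SG and at 10.0, 11.8 and 12.5 FPKM in TNFSG. It was the 1 member whose TNFSG replicates all lay above those of SG, with a log2 difference of 0.24 ± 0.099 (adjusted p = 0.376).

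**Figure D3:**
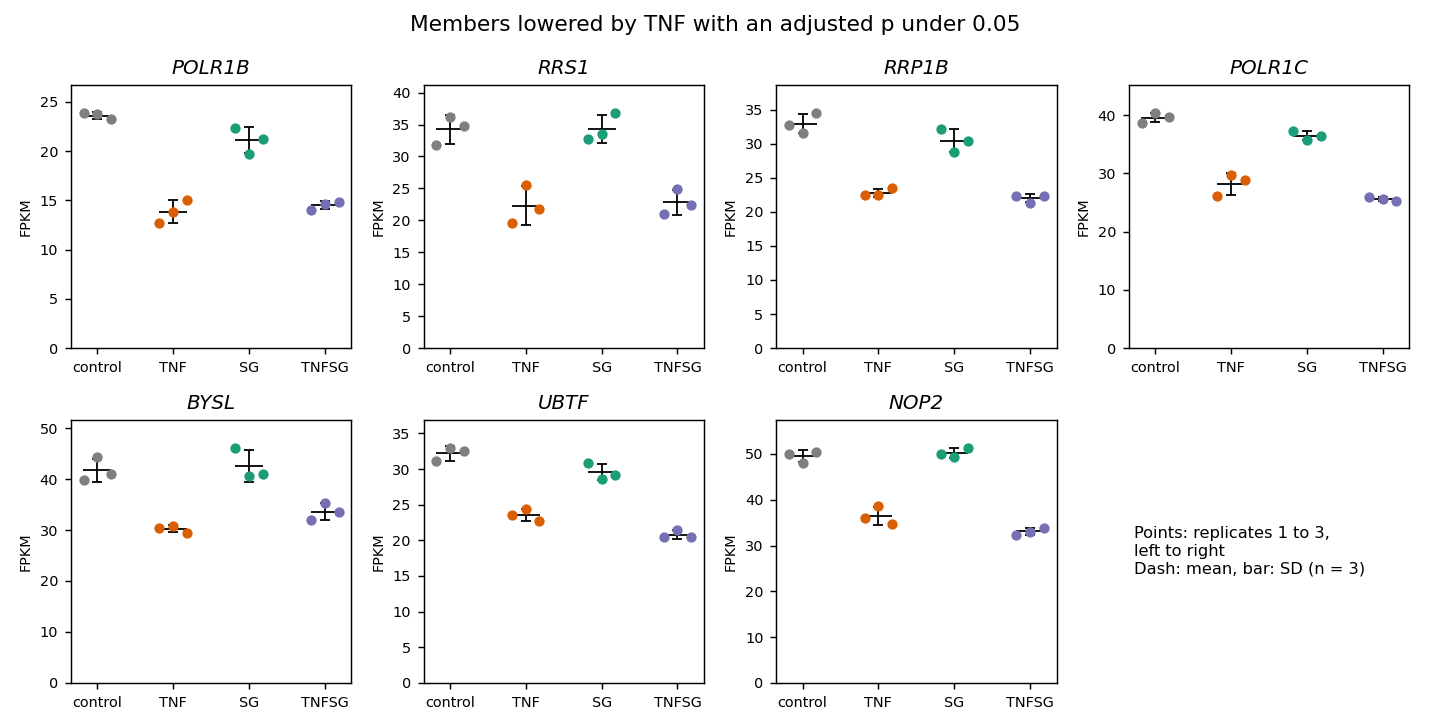
FPKM of the 7 genes that fell after TNF, by group, each panel with an axis from 0. Points are replicates 1 to 3 from left to right, dashes the mean and bars the SD of 3 replicates. In each of the 7 panels the TNF and TNFSG points lie below all control and SG points.

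None of the 8 snoRNP proteins passed the test in any comparison. The methyltransferase FBL had the smallest log2 difference of the 8 in TNF against control. It was at 469.8, 512 and 526 FPKM in control and 455, 513 and 523 FPKM in TNF, which overlapped, with a log2 difference of -0.017 ± 0.089 (limma adjusted p = 0.977). Its box C/D partners NOP56, NOP58 and RRP9 had -0.29, -0.18 and -0.17 in TNF against control. Of these NOP56 was at 178, 202 and 202 FPKM in control and at 145, 169.9 and 159 FPKM in TNF, with no overlap (adjusted p = 0.277). In the box H/ACA group the pseudouridine synthase DKC1 had -0.23, GAR1 -0.28 and NOP10 -0.069, with overlapping replicates in each. NHP2, which binds the H/ACA guide RNA, was listed at 0 in TNFSG replicate 3 and at 199 and 196 FPKM in the other TNFSG libraries. Its other 9 libraries lay between 176.6 and 215 FPKM. Its log2 difference in TNFSG against SG was -2.53 with that library and 0.018 without it, so it decides the NHP2 values and the lowest ends of the ranges for TNFSG.

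None of the 3 chaperones or scaffolds passed either, and NPM1 and NCL were among the most abundant members. NCL, an RNA-binding chaperone of the nucleolus, was at 685, 893 and 812 FPKM in control and at 547, 774 and 711 FPKM in TNF. Its groups overlapped and its log2 difference was -0.24 ± 0.14 (limma adjusted p = 0.629). NPM1, a histone and ribosome chaperone, averaged 1639 FPKM over the 12 libraries, the highest level of all members, with a log2 difference of -0.11 (adjusted p = 0.86). NOLC1, a scaffold that binds snoRNPs, had -0.24 (adjusted p = 0.5).

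Of the 18 factors of the small subunit processome and 40S maturation, 17 had negative differences in TNF against control and 1 fell. The median of the 18 was -0.30 in TNF against control and -0.20 in TNFSG against SG, and every replicate was lower in 10 of 18 in each. BYSL, which acts late in 40S assembly, was at 39.8, 44.3 and 41.1 FPKM in control and at 30.4, 30.8 and 29.5 FPKM in TNF. The groups did not overlap, and the mean fell by 27.5% (log2 change -0.45 ± 0.071, limma adjusted p = 0.0127). SG had 46.1, 40.7 and 40.9 FPKM and TNFSG 31.9, 35.3 and 33.5 FPKM, also without overlap, with a log2 difference of -0.33 ± 0.071 that did not pass (adjusted p = 0.0572). In TNF against control the call of BYSL was lost when control replicate 2, control replicate 3 or TNF replicate 3 was left out (adjusted p up to 0.0634). BYSL lies at chr6:41921188-41933046 on the plus strand.

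Larger differences with wider spread came from 3 UTP factors of the processome, which bind the nascent precursor rRNA or the particle formed on it. WDR3 was at 35.4, 44.0 and 44.8 FPKM in control, 21.3, 29.2 and 28.2 FPKM in TNF, 37.6, 37.4 and 42.8 FPKM in SG and 22.4, 25.9 and 26.9 FPKM in TNFSG. The TNF-treated libraries were all below the untreated ones, with log2 differences of -0.64 ± 0.14 (adjusted p = 0.0615) and -0.63 ± 0.14 (adjusted p = 0.0631). A gene on the opposite strand, SPAG17, shares 17.1% of the exon bases of WDR3. UTP15 was at 11.96, 14.3 and 14.96 FPKM in control and 7.02, 9.34 and 9.60 FPKM in TNF, and at 11.6, 11.8 and 13.0 FPKM in SG and 7.30, 8.65 and 9.68 FPKM in TNFSG. It showed the same order of groups, at -0.61 ± 0.14 (adjusted p = 0.0793) and -0.47 ± 0.14 (adjusted p = 0.192). WDR43 was at 55.4, 72.5 and 71.1 FPKM in control and at 36.0, 50.4 and 48.7 FPKM in TNF, a log2 difference of -0.55 ± 0.14 (adjusted p = 0.13). In SG it was at 57.4, 63.3 and 60.5 FPKM and in TNFSG at 40.02, 48.5 and 44.9 FPKM, at -0.44 ± 0.14 (adjusted p = 0.248). WDR75, of the same UTP subcomplex as WDR43 and UTP15, was the 1 factor of this role with a positive difference in TNF against control, 0.13 ± 0.21 with overlapping replicates (adjusted p = 0.892).

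All 18 of the 60S assembly factors had negative differences in TNF against control, with a median of -0.28, and 3 fell. NOP2, an rRNA cytosine methyltransferase, was at 50.1, 48.0 and 50.4 FPKM in control and 35.9, 38.7 and 34.7 FPKM in TNF. It was at 50.0, 49.3 and 51.3 FPKM in SG and at 32.4, 33.0 and 33.9 FPKM in TNFSG, so that neither pair of groups overlapped. The log2 change was -0.43 ± 0.057 in TNF against control (limma adjusted p = 0.00473) and -0.59 ± 0.057 in TNFSG against SG (adjusted p = 0.000658). NOP2 lies at chr12:6556863-6568691 on the minus strand, and a gene on the same strand, AC006064.6, covers 54.4% of its exon bases, so the reads of both cannot be told apart.

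RRP1B, a nucleolar protein of 60S processing, was at 32.7, 31.6 and 34.5 FPKM in control, 22.5, 22.4 and 23.5 FPKM in TNF, 32.2, 28.7 and 30.4 FPKM in SG and 22.4, 21.3 and 22.3 FPKM in TNFSG. Its TNF-treated libraries were all below the untreated ones, and it changed by -0.51 ± 0.064 (limma adjusted p = 0.00311) and -0.45 ± 0.064 (adjusted p = 0.00634). RRP1B lies at chr21:43659548-43696079 on the plus strand. Its paralogue RRP1 was at 34.0, 41.0 and 42.6 FPKM in control and at 28.5, 34.0 and 32.5 FPKM in TNF. Those groups overlapped by TNF replicate 2 and control replicate 1, and the log2 difference was -0.30 ± 0.098 (adjusted p = 0.247).

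RRS1, needed for the 5S ribonucleoprotein to join the large subunit precursor, was at 31.8, 36.3 and 34.7 FPKM in control, 19.6, 25.5 and 21.8 FPKM in TNF, 32.7, 33.5 and 36.8 FPKM in SG and 21.0, 24.98 and 22.5 FPKM in TNFSG. Both pairs of groups were apart, with log2 changes of -0.60 ± 0.11 (limma adjusted p = 0.0234) and -0.57 ± 0.11 (adjusted p = 0.0284). The call of RRS1 in TNF against control was lost when TNF replicate 1 or 3 or control replicate 2 or 3 was left out (adjusted p up to 0.108). In TNFSG against SG it was lost without any 1 library except TNFSG replicate 2 (adjusted p up to 0.123). A gene on the same strand shares 11.4% of the exon bases of RRS1. POLR1B, POLR1C, UBTF, NOP2 and RRP1B stayed under the threshold in both comparisons in all 6 fits that left out 1 library of the groups compared.

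EBNA1BP2, a 60S scaffold protein, was the least reproducible member. It was at 1476, 2017 and 917 FPKM in control, 1621, 1026 and 1339 FPKM in TNF, 645 and 2455 and 1132 FPKM in SG, and 2042, 411 and 1886 FPKM in TNFSG. The groups overlapped throughout, and its coefficient of variation within groups had a median of 49.8%, against 9.09% for the median member. A gene on the opposite strand shares 18.8% of its exon bases. Levels of the other members averaged from 7.62 FPKM for TAF1A to 711 FPKM for NCL, NPM1 and EBNA1BP2 apart. By GENCODE 29, 31 of the 58 genes share exon bases with another gene and 24 with one on the opposite strand.

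Without TNF, the targeting oligonucleotides changed none of the 58 genes at an adjusted p under 0.05 (limma), as against 0.170% of all loci called in either direction. At an unadjusted p under 0.05, 5 members were lower and 0 higher, where 3239 of 32866 loci were at that level in either direction. The median log2 difference of SG against control was -0.084 over the members and 0.085 over all loci. That median of all loci became 0.019 after median-ratio scaling and -0.034 after quantile normalization. With those scalings the members' median was -0.17 and -0.15, so it stayed below that of all loci. Negative differences were seen in 40 of 58 members as deposited, where 38.6% of all loci were negative, and in 53 of 58 under each scaling. Under median-ratio scaling the members' median was -0.17 in TNFSG against SG, with 52 negative. It was -0.24 in TNF against control, with 54 negative. In 10 members (17.2%) every SG replicate lay below every control replicate, as in 7.60% of loci at 10 FPKM or more. TNF against control and SG against control share the control libraries, so their values are given side by side only.

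PNO1, a 40S factor that binds the end of the small subunit rRNA, had the most negative difference of SG against control. It was at 23.1, 27.0 and 26.1 FPKM in control, 14.7, 19.9 and 18.8 FPKM in TNF, 17.5, 16.5 and 17.8 FPKM in SG and 12.5, 13.9 and 13.1 FPKM in TNFSG. Control held its highest and TNFSG its lowest values, and neither overlapped with another group. The log2 difference was -0.53 ± 0.11 in SG against control (adjusted p = 0.153), -0.40 ± 0.11 in TNFSG against TNF (adjusted p = 0.296), -0.50 ± 0.11 in TNF against control (adjusted p = 0.0722) and -0.37 ± 0.11 in TNFSG against SG (adjusted p = 0.195).

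DDX18, an RNA helicase of 60S assembly whose locus also carries the name AC009404.2, was at 71.8, 84.0 and 84.9 FPKM in control, 59.7, 76.5 and 66.7 FPKM in TNF, 54.1, 62.1 and 55.5 FPKM in SG and 47.2, 54.8 and 45.8 FPKM in TNFSG. SG lay below control and TNFSG below TNF without overlap, at -0.48 ± 0.11 (adjusted p = 0.203) and -0.45 ± 0.11 (adjusted p = 0.258), while TNF and control overlapped. RRN3, whose levels are given above, had -0.30 ± 0.085 in SG against control (adjusted p = 0.279) and -0.22 ± 0.085 in TNFSG against TNF (adjusted p = 0.483). The SL1 subunit TAF1D, whose locus carries a second name, was at 61.4, 55.0 and 54.9 FPKM in control and 44.5, 48.6 and 50.8 FPKM in SG, a log2 difference of -0.25 (adjusted p = 0.43). LTV1, a 40S assembly factor on a locus that also carries the name PHACTR2, was at 70.1, 81.6 and 73.1 FPKM in control and 67.4, 65.5 and 56.9 FPKM in SG, a log2 difference of -0.24 (adjusted p = 0.475).

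In the presence of TNF, again none of the 58 genes changed between TNFSG and TNF (limma), where 0.128% of loci were called in either direction. At an unadjusted p under 0.05, 5 members were lower and 1 higher, where 2995 of 32866 loci were at that level in either direction. The median difference was -0.026 over the members against 0.081 over all loci. The sign of the members' median was not stable, with values from -0.11 to 0.028 over the alternatives tried. Every TNFSG replicate lay below every TNF replicate in 8 members (13.8%), as in 7.79% of loci at 10 FPKM or more, and above in 2. Besides PNO1, DDX18 and RRN3, the lower ones included UBTF with -0.17 ± 0.060 (adjusted p = 0.413) and NOC2L, a nucleolar protein of the 60S pathway, with -0.15 ± 0.070 (adjusted p = 0.568). NOC2L was at 138, 142 and 136 FPKM in TNF and 126, 128 and 119 FPKM in TNFSG. The 2 higher ones were POLR1D, at 36.4, 39.0 and 37.3 FPKM in TNF and 39.8, 48.0 and 46.1 FPKM in TNFSG (0.24 ± 0.085, adjusted p = 0.433), and BYSL (0.15 ± 0.071, adjusted p = 0.588).

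The difference between the TNF responses of the 2 transfections was tested as an interaction, TNFSG against SG minus TNF against control. No member passed (limma, lowest adjusted p = 1), none had an unadjusted p under 0.05, and 0.00913% of loci were called. At that unadjusted level were 1234 of 32866 loci. The median was 0.068, with 43 of 58 members positive, and it became -0.052 without TNF replicate 1. For POLR1B the difference was 0.22 with a 95% interval from -0.019 to 0.46, for NOP2 -0.16 (-0.34 to 0.026) and for BYSL 0.12 (-0.11 to 0.34). Intervals for the other 4 genes that fell ran from -0.21 to 0.17 for POLR1C, from -0.24 to 0.14 for UBTF, from -0.14 to 0.26 for RRP1B and from -0.30 to 0.37 for RRS1. They do not show that the responses were equal.

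**Figure D4:**
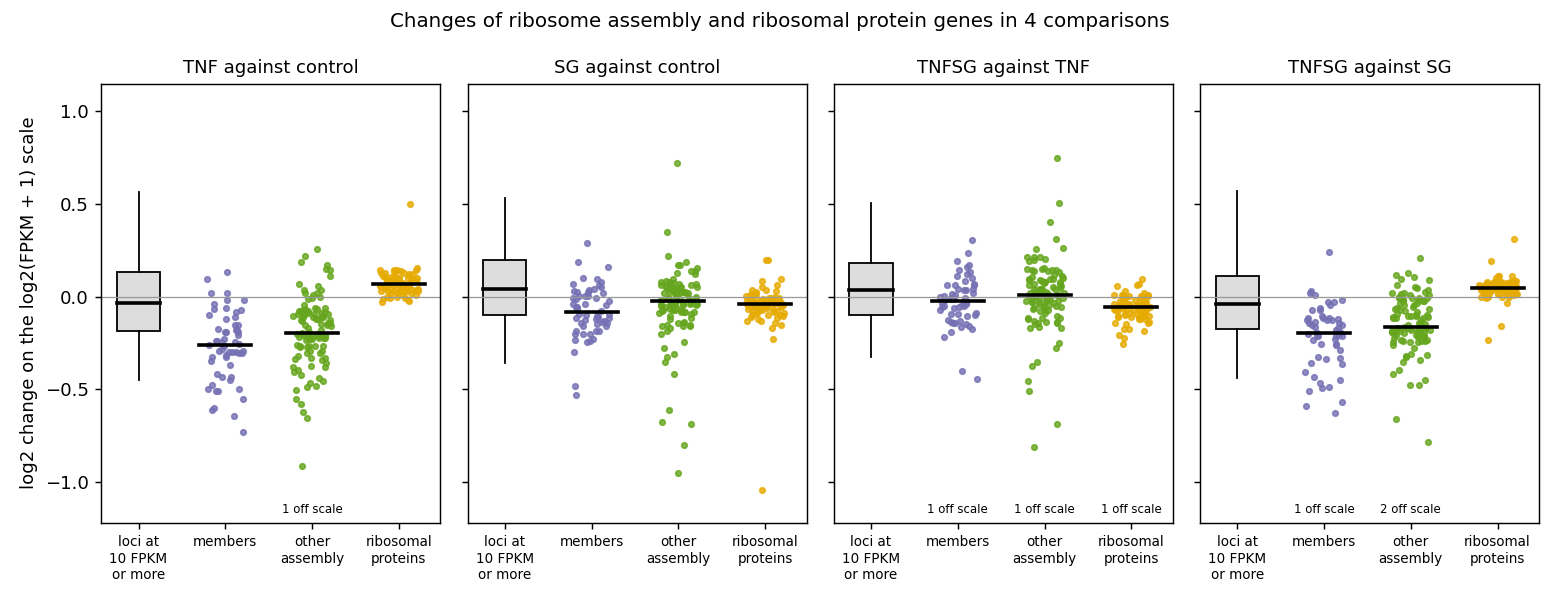
Log2 changes on the log2(FPKM + 1) scale in the 4 pairwise comparisons. Boxes give the quartiles of the 9824 loci averaging at least 10 FPKM, with lines to the percentiles 10 and 90. Points are the 58 members, 109 other ribosome assembly genes and 79 ribosomal protein genes, with a bar at each median, and points beyond the axis are counted in words. Members and other assembly genes sit lower after TNF in both transfections, and ribosomal protein genes sit slightly above 0.

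A wider list of 124 ribosome assembly and related symbols, of which 109 were in the file, was described in the same way. In TNF against control 4 of 109 fell (3.67%) and none rose, with 95 negative and a median of -0.19. The 4 were MAK16, a 60S factor, SURF6, a nucleolar matrix protein, NOL8, a nucleolar protein, and MPHOSPH10, a processome subunit. MAK16 was at 40, 42.8 and 47.5 FPKM in control, 25.6, 28.1 and 27.8 FPKM in TNF, 27.2, 24.6 and 27.9 FPKM in SG and 17.8, 19.4 and 19.3 FPKM in TNFSG. It was high in control alone, and its log2 change was -0.65 ± 0.083 in TNF against control (limma adjusted p = 0.00345) and -0.48 ± 0.083 in TNFSG against SG (adjusted p = 0.0203). SURF6 changed by -0.46 ± 0.074 (adjusted p = 0.0149) and -0.47 ± 0.074 (adjusted p = 0.0113) in the same comparisons, NOL8 by -0.42 ± 0.079 and MPHOSPH10 by -0.48 ± 0.097 in TNF against control (adjusted p = 0.0326 and 0.0469). MAK16 in TNF against control held in all 6 fits that left out 1 library, SURF6 in 2 of 6, and NOL8 and MPHOSPH10 in none. Without replicate 1 of every group all 4 calls were lost (limma adjusted p = 0.0554 for MAK16, 0.0568 for SURF6, 0.121 for NOL8 and 0.0833 for MPHOSPH10), and 1 other gene of the list fell, PAK1IP1, which is named after its value was seen. In TNFSG against SG, MAK16 and SURF6 were the 2 that fell (1.83%), MAK16 in 1 and SURF6 in 4 of 6 such fits, and the list's median was -0.16. Both were lost without replicate 1 of every group (limma adjusted p = 0.17 and 0.0743), where none of the 109 passed.

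In SG against control 4 genes of this wider list fell (HEATR1, UTP6, MAK16 and TBP) and 1 rose (NGDN), where 0.170% of all loci were called in either direction. The list's median was -0.022, and -0.11 under both median-ratio scaling and quantile normalization. HEATR1, a processome protein, was at 48.8, 56.6 and 54.5 FPKM in control and 29.3, 27.1 and 24.7 FPKM in SG, a log2 change of -0.95 ± 0.11 (limma adjusted p = 0.0143). UTP6, of the same particle, was at 61.4, 67.7 and 68.7 FPKM in control and 44.4, 37.3 and 40.9 FPKM in SG, a change of -0.68 ± 0.081 (adjusted p = 0.019). SG lay below control without overlap in both genes, and in TNF against control they had -0.36 and -0.23 with adjusted p = 0.188 and 0.291. MAK16 changed by -0.69 ± 0.083 (limma adjusted p = 0.0203) and TBP, the TATA-binding subunit of SL1 and other initiation complexes, by -0.61 ± 0.093 (adjusted p = 0.0489). NGDN, a processome protein, was at 25.1, 21.7 and 25.02 FPKM in control and 39.3, 39.95 and 40.9 FPKM in SG, and at 20.6, 21.3 and 18.9 FPKM in TNF and 29.8, 36.7 and 38.0 FPKM in TNFSG. It was higher with the targeting oligonucleotides in every library, by 0.72 ± 0.099 (adjusted p = 0.0322) and 0.75 ± 0.099 (adjusted p = 0.0335). Leaving out any 1 library of the groups compared ended the calls of TBP and NGDN in SG against control, that of MAK16 held in 1 of 6 such fits, and those of HEATR1 and UTP6 in 2 of 6 each. Without replicate 1 of every group HEATR1 alone remained under the threshold there (limma adjusted p = 0.0302), with 0.0748 for UTP6, 0.106 for MAK16, 0.246 for TBP and 0.12 for NGDN. In TNFSG against TNF, HEATR1 and UTP6 fell by 0.81 and 0.69 on the log2 scale (adjusted p = 0.0335 and 0.0219), each held in 1 of 6 such fits, as did the rise of NGDN. None of these 3 passed without replicate 1 of every group (adjusted p = 0.0609, 0.101 and 0.113).

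MYC itself was at 148, 166 and 189.6 FPKM in control and 166, 188 and 201 FPKM in TNF, which overlapped, with a log2 difference of 0.14 ± 0.11 (limma adjusted p = 0.719). In SG it was at 133, 114 and 127 FPKM, all below control, at -0.42 ± 0.11 (adjusted p = 0.237). In TNFSG it was at 131, 131 and 141 FPKM, all below TNF. The log2 difference of TNFSG was -0.46 ± 0.11 against TNF (limma adjusted p = 0.22) and 0.11 ± 0.11 against SG (adjusted p = 0.803).

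The products that these factors assemble, the ribosomal proteins, had small differences in the other direction after TNF. All 79 genes of the list were in the file, and none passed the test in any comparison (lowest limma adjusted p = 0.337 in TNF against control). In TNF against control 71 of 79 had positive differences with a median of 0.070, and in TNFSG against SG 72 of 79 with a median of 0.047. Under median-ratio scaling and quantile normalization the first median was 0.086 and 0.041 and the other 0.077 and 0.067. In SG against control 64 of 79 had negative differences, with a median of -0.039. In TNFSG against TNF 65 of 79 were negative, with a median of -0.058. Every TNFSG replicate lay below every TNF replicate in 27 of the 79 (34.2%), as in 7.79% of loci at 10 FPKM or more. At an unadjusted p under 0.05, 1 was higher and none lower in TNF against control, where 3675 of 32866 loci were at that level in either direction.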

How the data were processed

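RNA-seq of 12 K562 libraries was used as the authors deposited it, as a table of FPKM. The tools TopHat2 2.0.14, Bowtie2 2.2.9 and Cufflinks and the build hg38 are named, with no role or order, per the submitters' processing notes. Annotation release, strand setting and read totals are not given in the sources used. The deposited FPKM values were transformed as log2(FPKM + 1), which understates changes of low genes, and loci at 1 FPKM or more in at least 3 libraries (32866) were tested. limma 3.58.1 in R 4.3.3 fitted 1 mean per group over all 12 libraries (eBayes with trend, two-sided, Benjamini-Hochberg adjustment over all loci, threshold 0.05), after it was tested on simulated data. No count-based test was run.

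Members, lists and roles were chosen with earlier results of these data known. Values in every library are given for members past the threshold, for the largest differences per comparison whose replicates do not overlap (up to 5 each way), and for named partners. Up to 12 other assembly genes past the threshold and MYC were also named. The alternatives were a pseudocount of 0.1 or 0.5, a 5 FPKM filter or none, quantile normalization, median-ratio scaling, a replicate block, no trend, fits of the compared groups alone, and each library left out. Leaving out replicate 1 of every group was chosen after seeing the data. Positions are from GENCODE 29 (GRCh38) and promoter windows from RefSeq (GRCh38.p14). Python 3.11.15, numpy 2.4.6, pandas 2.3.3 and matplotlib 3.10.9 were used.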

Additional observations from a re-analysis of the deposited data

How the results depend on the processing

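Of 30 log2 differences of members past the threshold or with the largest changes without overlap, none changed sign under the alternatives run. That of NHP2 did with 1 library left out, from -0.069 to 0.075 in TNF against control and from -3.80 to 0.018 in TNFSG against SG, and other members were run only within counts and medians. The number of members changed by TNF against control was 7, and it was 19 with a replicate block, 4 without the trend, 0 when the fit held only the groups compared, 5 to 8 with each library left out, and 3 without replicate 1 of every group. For TNFSG against SG it was 6, with 9 under the block, 3 with only the groups compared, 5 to 6 with each library left out and 1 without replicate 1. For SG against control, TNFSG against TNF and the interaction it was 0 in every setting. Replicate numbers did not pair the libraries by the rule used, since same-numbered libraries correlated by 0.0065 to 0.14 over all loci. Over the members alone those correlations were 0.70, 0.11 and 0.28 in TNF against control, and in each other comparison at least 1 was under 0.1, down to -0.54 in TNFSG against SG. Over all loci, TNF against control called 478, with 831 under the replicate block, 172 with only the groups compared, 294 to 432 with each library left out and 248 without replicate 1. TNFSG against SG called 540, with 843, 256, 311 to 364 and 236 under the same settings. SG against control called 56, with 115 at the 5 FPKM filter, 16 without the trend, 7 with only the groups compared, 10 to 29 with each library left out and 25 without replicate 1. TNFSG against TNF called 42, with 97 at the 5 FPKM filter, 78 with median-ratio scaling, 18 without the trend, 2 with only the groups compared, 7 to 18 with each library left out and 5 without replicate 1. The interaction called 3, with 12 at a pseudocount of 0.1, 1 to 6 with each library left out and 10 without replicate 1, and its members' median ran from -0.052 to 0.14 with each library left out. Calls in SG against control were 18 higher and 38 lower, with 17 and 66 under median-ratio scaling and 11 and 48 under quantile normalization, and in TNFSG against TNF 19 and 23, with 19 and 59 and 16 and 35. WDR3 passed in TNF against control under the replicate block, the 5 FPKM filter, quantile normalization and without control replicate 1, UTP15 under the first 2, and WDR43 under the block and without replicate 1. NOP2 in TNF against control was also lost without the trend. The cause of these differences was not tested. Read totals are unknown, so the depth behind low members such as TAF1A could not be stated.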
